A study of Mus musculus with 12 samples.

Results

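The mouse array used in this study carried 1836 probes whose names contain "lincRNA", and 1462 of them stood well above the local background on at least 3 of the 12 arrays. These 1462 lincRNA probes were compared with the 52770 remaining probes that met the same background requirement, among 54232 tested probes in all. The probes were selected by name and detection. A probe detected only where its group is high can pass this requirement, and 1 lincRNA probe, humanlincRNA0563+_P1, passed it through the arrays of 1 group alone. Among the probes named below, MM9LINCRNAEXON10627+_P1, humanlincRNA0246+_P1 and mouselincRNA1224-_P1 would also not have met it without the group where they are high. The names of the lincRNA probes had 3 prefixes, mouselincRNA (649 probes, 516 tested), humanlincRNA (1104 probes, 872 tested) and MM9LINCRNAEXON (83 probes, 74 tested), each followed by a number and a plus or minus sign. The sources used here do not say what the prefixes or the sign mean, and here the sign is read as the strand of the target.

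Long intergenic non-coding RNAs (lincRNAs) are transcripts from between protein-coding genes that are often spliced and polyadenylated but have no recognised open reading frame. Some act on chromatin or on neighbouring genes, and some bind miRNAs or proteins. In the heart, individual lincRNAs are known regulators of hypertrophy, fibrosis and cardiomyocyte death, whereas most members of the class have no known role. MiR-150 is a miRNA studied in the injured heart. The files pair no gene names with probes, so the level of miR-150 itself could not be checked here.

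RNA came from left ventricles (LVs) of 12 C57BL/6J mice, 3 in each of 4 groups, collected 4 weeks after surgery. The miR-150 fl/fl mice (sham miR-150 fl/fl, MI miR-150 fl/fl) carried floxed miR-150 alleles only and had sham surgery or myocardial infarction (MI). The sham miR-150 cKO and MI miR-150 cKO groups carried the same floxed alleles together with alpha-MHC-Cre, which is active in cardiomyocytes, so that other cardiac cells keep the floxed gene. No group carried alpha-MHC-Cre without floxed alleles, so effects of Cre and of the deletion cannot be told apart. At harvest the sham miR-150 fl/fl mice were 13 to 14 weeks old, the MI miR-150 fl/fl mice were 14 weeks old, the sham miR-150 cKO mice 14 to 15 weeks old, and the MI miR-150 cKO mice were 15 weeks old. Each group held 1 male and 2 females.

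Each RNA was hybridised to its own 1-colour Cy3 array, and levels are given as log2 signal relative to the 75th percentile of the array, which lies at 0. A probe was called past the limits where the groups differed at least 1.5-fold with an unadjusted p under 0.05 in a limma fit over all 54232 tested probes and adjusted p-values are Benjamini-Hochberg values over the same probes. All MI miR-150 cKO arrays, together with replicate 3 of MI miR-150 fl/fl, were read as 1 slide (slide 1) and the other 8 arrays as another (slide 2), as inferred from scan and array position in the file headers. Sham and MI arrays of miR-150 cKO mice therefore lay wholly on different slides. There, surgery and slide cannot be told apart except through the MI miR-150 fl/fl arrays on both slides. Sham miR-150 cKO replicates 2 and 3 and MI miR-150 fl/fl replicates 1 and 2 lay in row 2 of slide 2. Every other array lay in row 1, so row and group cannot be fully told apart. Signal reflects the binding of each probe as well as the amount of RNA, so a difference in brightness between probes is not a difference in abundance. In ventricular tissue, fewer cells of a type and less RNA per cell cannot be told apart.

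LincRNA probes were dimmer than the rest of the array in every sample. The median lincRNA probe lay at -2.25 ± 0.07 (SD, n = 12 arrays) and the median remaining probe at -1.41 ± 0.04. The gap between the medians was -0.84 ± 0.03 and ranged only from -0.90 on sham miR-150 cKO replicate 3 to -0.80 on sham miR-150 fl/fl replicate 1. In the sham groups the gap was -0.82 ± 0.02 for miR-150 fl/fl and -0.87 ± 0.04 for miR-150 cKO, and in the MI groups -0.84 ± 0.04 and -0.83 ± 0.02 (SD, n = 3 each), and these values overlapped. Of the lincRNA probes, 37.6% fell in the dimmest quartile of all tested probes and 11.1% in the brightest.

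**Figure D1:**
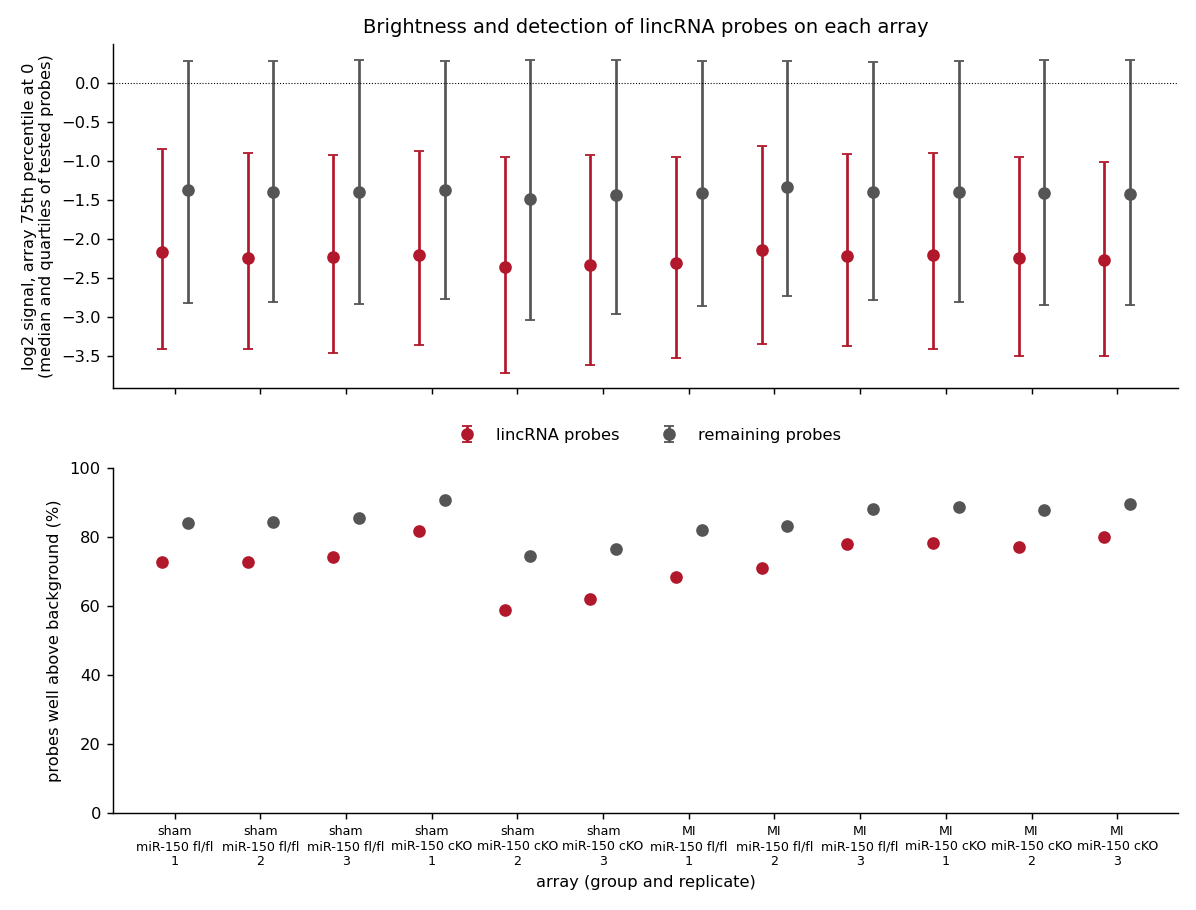
The upper panel plots, for each of the 12 arrays, the median (point) and quartiles (bars) of the log2 signal of tested lincRNA probes (red) and tested remaining probes (grey), with the 75th percentile of the array at 0. The lower panel plots the percentage of lincRNA and remaining probes well above background on that array. LincRNA probes were dimmer and less often detected on all 12 arrays, and sham miR-150 cKO replicates 2 and 3 had the lowest detection, at 58.9% and 62.0%.

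Detection of lincRNA probes was lower and less even. Of the 1836 lincRNA probes, 1038 (56.5%) were well above background on all 12 arrays, 424 on 3 to 11 arrays, 132 on 1 or 2, and 242 (13.2%) on none. Among the remaining probes 72.9% were well above background on all 12 arrays and 6.64% on none. The MM9LINCRNAEXON probes were detected more often than the other prefixes, with 89.2% tested against 79.5% for mouselincRNA and 79.0% for humanlincRNA. On single arrays the detected share of lincRNA probes ran from 58.9% and 62.0% on sham miR-150 cKO replicates 2 and 3 to 81.7% on sham miR-150 cKO replicate 1. Thus the lowest and the highest array belonged to the same group. The arrays in row 2 of slide 2 had the lowest shares, with 68.5% and 71.1% on MI miR-150 fl/fl replicates 1 and 2. Every array in row 1 had at least 72.8%.

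The brightest lincRNA probe was mouselincRNA1606-_P1, with a mean of 9.27 over the 12 arrays and single values between 8.72 and 9.59. It was followed by mouselincRNA0161-_P1 at 8.44, humanlincRNA2397+_P1 at 8.18, humanlincRNA1739+_P1 at 8.02 and humanlincRNA0847-_P1 at 7.63. None of these 5 passed the limits in any comparison. For mouselincRNA0161-_P1 the 3 sham miR-150 cKO arrays lay at 8.17, 8.09 and 8.24, below the 8.29, 8.65 and 8.63 of sham miR-150 fl/fl and the 8.44, 8.73 and 8.79 of MI miR-150 cKO. Both differences were small, -0.35 ± 0.12 (SE) and 0.48 ± 0.12, with limma adjusted p-values of 0.512 and 0.0729. The dimmest tested probe was humanlincRNA0563+_P1 at -5.51, which was well above background only on the 3 MI miR-150 cKO arrays, at -4.51, -4.67 and -4.88.

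The number in the names linked 876 pairs of a plus and a minus probe, among 960 numbers in all. Both probes of a pair were tested in 564 pairs (64.4%), 1 probe in 266 and none in 46. In 117 pairs 1 probe was well above background on all 12 arrays and its partner on none. Among the 564 pairs the plus probe was brighter in 273 and the minus probe in 291, with a median distance of 1.69 on the log2 scale. The signals of the pair were at least 2-fold apart in 381 pairs (67.6%) and at least 16-fold apart in 77 (13.7%). Across the 564 pairs the levels of the partners had a Pearson r of 0.05 and a Spearman rho of 0.02, given as a description because pairs on the same arrays are not independent samples. The widest gap, 13.6, was that between mouselincRNA1606-_P1, the brightest of all, and mouselincRNA1606+_P1, which averaged -4.30 and was detected on 8 arrays.

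**Figure D2:**
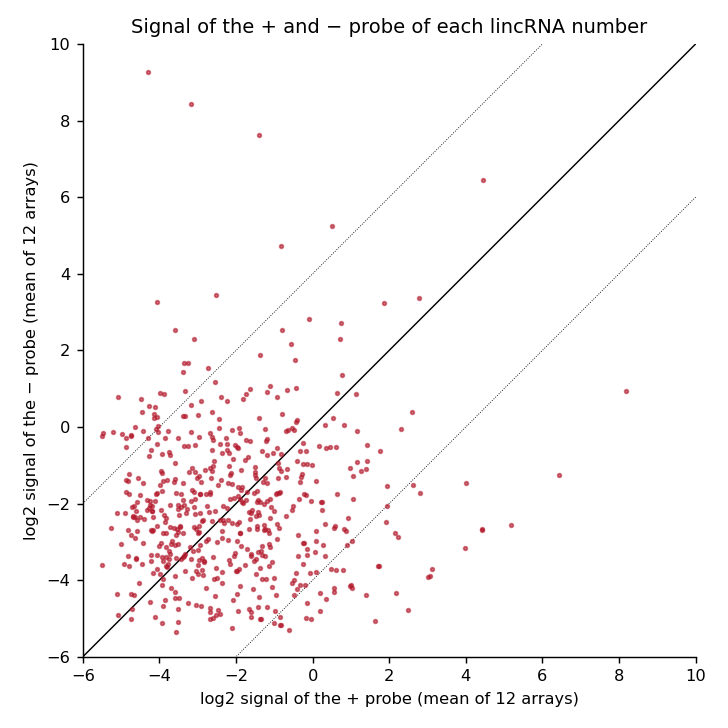
Each of the 564 points is 1 lincRNA number, with the mean log2 signal of its plus probe over 12 arrays on the x axis and that of its minus probe on the y axis. The solid line marks equal signal and the dotted lines a 16-fold distance, beyond which 77 pairs lie. The points spread over the whole square, with a Pearson r of 0.05.

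Sham miR-150 cKO was compared with sham miR-150 fl/fl to ask what cardiomyocyte deletion of miR-150 does without infarction. Of the 1462 lincRNA probes, 4 were higher (0.274%, against 0.636% of all tested probes) and 26 lower (1.78%, against 2.12%). No adjusted p in limma was under 0.05, the lowest being 0.509, and 120 (8.21%, against 9.18%) had an unadjusted p under 0.05. The groups did not overlap for 3 of the higher and 8 of the lower probes (0.205% and 0.547%, against 0.437% and 1.15% of all tested probes). Of the 26 lower probes, 22 lay in the dimmest quartile of the array, where 4% of lincRNA probes and 5.11% of remaining probes were lower, and 665 of the 1122 remaining lower probes lay there too. The lower probes rested on the same 2 arrays that had the lowest detection: 5 were counted without sham miR-150 cKO replicate 2 and 11 without replicate 3. Without sham miR-150 cKO replicate 1 there were 99, and leaving out replicate 1 of sham miR-150 fl/fl gave 56. Sham miR-150 cKO replicates 2 and 3 lay in row 2 and the sham miR-150 fl/fl arrays in row 1. The parts of detection and of row in these counts were not tested beyond the blocked fits.

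Among the lower probes, mouselincRNA1106-_P1 was well above background on all 12 arrays and gave -2.62, -1.15 and -2.17 in sham miR-150 fl/fl and -2.64, -3.36 and -2.83 in sham miR-150 cKO. The lowest sham miR-150 fl/fl value lay just above the highest sham miR-150 cKO value. The difference was -0.96 ± 0.36 (SE), or 1.95-fold, with a limma adjusted p of 0.512. It was -0.54 without replicate 2 of sham miR-150 fl/fl, -0.75 without sham miR-150 cKO replicate 2 and -0.44 after normexp background correction, past the limits in none of these. Similar in size were MM9LINCRNAEXON11569-_P1, which went from -1.0, -1.68 and -1.69 to -2.08, -2.58 and -1.88 (-0.72 ± 0.24), and humanlincRNA0076+_P1, from -1.25, -0.41 and -1.25 to -1.46, -1.83 and -1.70 (-0.69 ± 0.22), both with adjusted p = 0.512 in limma. Without replicate 2 of sham miR-150 fl/fl the latter was -0.42, and the former was -0.49 and -0.52 without sham miR-150 fl/fl replicate 1 and sham miR-150 cKO replicate 2. After normexp background correction they were -0.45 and -0.51, and none of these values passed the limits. For humanlincRNA0622+_P1 and humanlincRNA0171+_P1 only 1 of the 3 sham miR-150 cKO arrays was above background, and the measured differences of -1.06 ± 0.41 and -0.83 ± 0.27 include signal below background. They were -0.05 and -0.22 after normexp background correction, -0.54 without sham miR-150 cKO replicate 2 for the first, and -0.51 without sham miR-150 cKO replicate 3 for the second, past the limits in none of these. No other-strand partner of a probe past the limits passed them in the same direction, among 24 partners tested.

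The 4 higher probes were humanlincRNA2254-_P1, humanlincRNA1086-_P1, humanlincRNA1397+_P1 and humanlincRNA0563+_P1, of which the third was named after its values were seen. In humanlincRNA2254-_P1 the sham miR-150 fl/fl arrays lay at -0.78, -0.86 and -0.83 and the sham miR-150 cKO arrays at -0.66, -0.48 and 0.51. The groups did not overlap, but replicate 3 alone stood far above the others, and the difference of 0.61 was 0.25 without it. In humanlincRNA1086-_P1 replicate 2 did the same, at -2.27 beside -3.47 and -3.28, and the difference of 0.63 was 0.27 without it. HumanlincRNA1397+_P1 was above background on no sham miR-150 fl/fl array and on 2 sham miR-150 cKO arrays, at -4.23, -3.40 and -4.32 in sham miR-150 cKO. The dimmest, humanlincRNA0563+_P1, was not well above background on any array of either group, so no fold is given.

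MI miR-150 fl/fl was compared with sham miR-150 fl/fl to ask what infarction does when miR-150 is intact. Here the lincRNA probes differed least: 8 were higher (0.547%, against 0.881% of all tested probes) and 4 lower (0.274%, against 0.365%). None passed adjustment in limma, where the lowest adjusted p was 0.955, and 49 (3.35%, against 4.22% of all tested probes) had an unadjusted p under 0.05. The groups did not overlap for 3 higher and 3 lower probes (0.205% each, against 0.662% and 0.243% of all tested probes). Their median log2 difference was -0.03, beside -0.01 for the remaining probes. Leaving out replicate 1, 2 or 3 of sham miR-150 fl/fl gave 3, 34 and 5 higher probes, and leaving out replicate 1 of MI miR-150 fl/fl gave 17. For lower probes, leaving out replicate 2 of sham miR-150 fl/fl gave 7 and leaving out replicate 3 of MI miR-150 fl/fl gave 10.

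The higher probe with the widest difference was humanlincRNA1362+_P1. It gave -4.73, -4.45 and -4.80 in sham miR-150 fl/fl, where no array was well above background, and -0.19, -0.20 and -4.84 in MI miR-150 fl/fl. Thus 2 infarcted hearts were far above every other array and the third was at the level of sham, so that the groups overlapped. Against the lowest signal called above background on each sham array, the mean of the 3 MI miR-150 fl/fl arrays was 6.37-fold higher. This is not a lower bound, because replicate 3 of MI miR-150 fl/fl was not well above background. MouselincRNA0492-_P1 had the same shape, with -0.60 and -2.16 in MI miR-150 fl/fl replicates 1 and 2 and -4.06 in replicate 3, beside -4.21, -3.99 and -4.07 in sham. Replicates 1 and 2 lay on slide 2 and replicate 3 on slide 1. For both probes limma gave an adjusted p of 1.0, and neither passed the limits without replicate 1 or without replicate 2 (mouselincRNA0492-_P1 also not without sham miR-150 fl/fl replicate 1 or 3). On slide 2 alone the differences were 4.46 and 2.71.

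Smaller differences without overlap were found in humanlincRNA0755-_P1 and mouselincRNA0703-_P1. HumanlincRNA0755-_P1 went from -3.65, -3.41 and -3.52 to -3.28, -2.02 and -3.11 (0.72 ± 0.30), and the difference was 0.33 without MI miR-150 fl/fl replicate 2. MouselincRNA0703-_P1 went from -4.84, -4.32 and -4.41 to -4.08, -4.06 and -3.60 (0.61 ± 0.21), where 1 of 3 sham arrays was above background, and was 0.05 after normexp background correction. The 4 lower probes were humanlincRNA0171+_P1, humanlincRNA1853+_P1, mouselincRNA0231+_P1 and, named after its values were seen, humanlincRNA2329-_P1. HumanlincRNA0171+_P1 gave -3.85, -3.96 and -3.33 in sham and -4.60, -4.50 and -4.63 after MI, where 1 array was above background (-0.87 ± 0.27, adjusted p = 1.0 in limma), and the difference was -0.18 after normexp background correction. HumanlincRNA1853+_P1 and mouselincRNA0231+_P1 were above background on all 3 sham arrays and on no MI array, and were at least 1.30-fold and 1.23-fold lower, and neither passed the limits after normexp background correction or with slide as a block.

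MI miR-150 cKO was compared with sham miR-150 cKO to ask what infarction does when cardiomyocytes lack miR-150. This comparison held all of the adjusted calls among lincRNA probes. Past the limits were 41 higher (2.8%, against 4.6% of all tested probes) and 37 lower (2.53%, against 1.75%), and for 36 limma gave an adjusted p under 0.05 (2.46%, against 2.1%). Of these 36, 34 were lower and 2 higher, while among the remaining probes 676 were lower and 427 higher. The groups did not overlap for 22 of the higher and 36 of the lower probes past the limits (1.5% and 2.46%, against 3.53% and 1.6% of all tested probes). The split of 41 higher and 37 lower depended on scaling: quantile normalization gave 22 and 53, normexp background correction 4 and 14, the values deposited by the authors 21 and 52, a fit with slide as a block 12 and 51, and detection required on all 12 arrays 6 and 34.

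**Figure D3:**
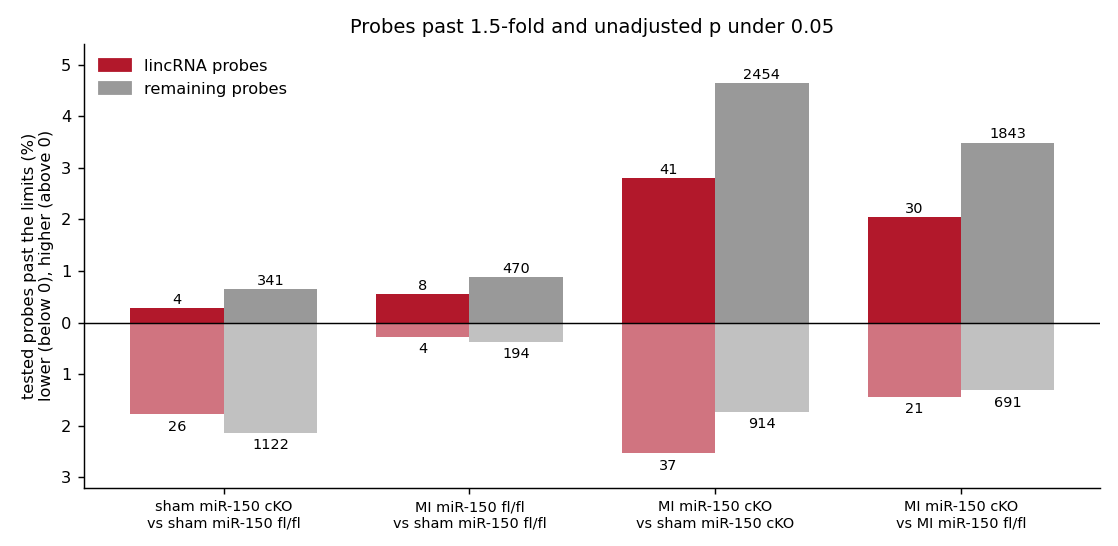
Bars give the percentage of tested lincRNA probes (red) and remaining probes (grey) past 1.5-fold and an unadjusted p under 0.05, higher above 0 and lower below 0, in the 4 comparisons. Numbers at the bars are counts of probes. In MI miR-150 cKO against sham miR-150 cKO the lincRNA bar was shorter than the grey bar upward (41 probes) and longer downward (37 probes).

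The higher and the lower probes differed in brightness. Of the 41 higher lincRNA probes, 36 lay in the dimmest quartile of the array and none in the brightest, whereas the 37 lower probes were spread over the brightness quartiles as 8, 12, 11 and 6 from dimmest to brightest. Among the remaining probes the dimmest quartile held 1116 of 2454 higher and 167 of 914 lower probes. The sham miR-150 cKO group contained the 2 arrays with the lowest detection, and the number of higher probes was 22 without sham miR-150 cKO replicate 3 and 132 without replicate 1. The part of detection in the higher calls was not tested.

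The 34 lincRNA probes that were lower after adjustment were mostly well detected: 33 were above background on all 12 arrays. They comprised 22 humanlincRNA, 10 mouselincRNA and 2 MM9LINCRNAEXON probes, 20 plus and 14 minus. Their fall ranged from 1.34-fold to 2.14-fold around a median of -0.65 on the log2 scale, and 22 of the 34 reached 1.5-fold. In all 34 the 3 MI miR-150 cKO arrays lay below the 3 sham miR-150 cKO arrays, as is nearly fixed by the call. Measured from the mean of each probe over 12 arrays, the median of the 34 was 0.08, 0.05 and 0.06 in sham miR-150 fl/fl, and 0.22, 0.31 and 0.34 in sham miR-150 cKO. It was 0.06, 0.06 and -0.10 in MI miR-150 fl/fl, and -0.30, -0.39 and -0.39 in MI miR-150 cKO. Thus the 2 cKO groups lay on either side of the 2 fl/fl groups, and MI miR-150 fl/fl replicate 3, which shared a slide with MI miR-150 cKO, was the lowest of the fl/fl arrays.

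**Figure D4:**
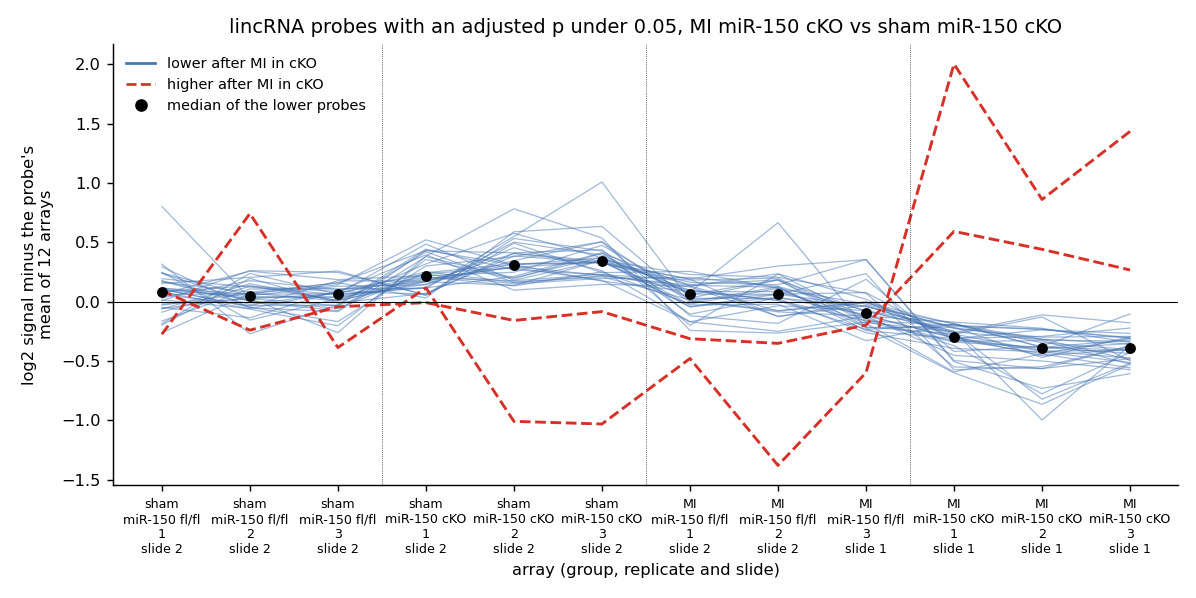
For the 36 lincRNA probes with an adjusted p under 0.05 in MI miR-150 cKO against sham miR-150 cKO, lines join the values of 1 probe over the 12 arrays, as log2 signal minus the mean of that probe. Blue lines are the 34 lower probes, red dashed lines the 2 higher probes and black points the median of the 34. The points lie between 0.22 and 0.34 in sham miR-150 cKO and between -0.39 and -0.30 in MI miR-150 cKO.

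The same 34 probes had a median log2 difference of 0.26 between sham miR-150 cKO and sham miR-150 fl/fl (range 0.06 to 0.54), -0.05 between MI and sham in miR-150 fl/fl (range -0.42 to 0.25) and -0.36 after MI between the genotypes (range -0.90 to -0.07). The first and the last of these share arrays with the comparison that chose the probes, so their signs are not separate results. The other-strand partner was tested for 27 of the 34. None of these partners had an adjusted p under 0.05, 10 of 27 were below 0, and their median log2 difference was 0.08, with a range of -0.39 to 0.62.

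The lowest limma p belonged to humanlincRNA1443+_P1. Its values were -3.43, -3.74 and -3.57 in sham miR-150 cKO and -4.47, -4.48 and -4.40 in MI miR-150 cKO, with the 6 fl/fl arrays between -3.94 and -3.69. The probe was detected on 11 arrays, and sham miR-150 cKO replicate 2 was the array where it was not well above background. No cKO value overlapped, and the difference was -0.87 ± 0.10 (1.83-fold, adjusted p = 0.0223 in limma), or -0.35 after normexp background correction. HumanlincRNA2390+_P1 gave -0.33, -0.09 and -0.17 in sham miR-150 cKO and -1.01, -1.23 and -1.11 in MI miR-150 cKO, with a difference of -0.91 ± 0.10 (1.89-fold, adjusted p = 0.0223). Its 3 sham miR-150 fl/fl arrays, at -0.56, -0.35 and -0.49, and its 3 MI miR-150 fl/fl arrays, at -0.31, -0.20 and -0.14, all stood above the MI miR-150 cKO arrays. MI miR-150 fl/fl replicate 3, on the slide of the MI miR-150 cKO arrays, was the highest of those 3 in this probe, and with slide as a block the difference was -1.02.

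HumanlincRNA0115+_P1 fell from -1.53, -1.54 and -1.52 to -2.33, -2.73 and -2.38, a difference of -0.95 ± 0.13 (1.93-fold). The 3 sham miR-150 cKO values were closer to each other than to any other array, since sham miR-150 fl/fl lay at -1.79, -1.88 and -1.80. MouselincRNA1103-_P1, under the fold limit, differed less, from -0.05, -0.14 and -0.09 to -0.56, -0.63 and -0.64 (-0.51 ± 0.07, 1.43-fold), and both had adjusted p = 0.0223 in limma. Wider falls were those of mouselincRNA1052+_P1, humanlincRNA1287-_P1 and MM9LINCRNAEXON11660+_P1. MouselincRNA1052+_P1 went from -1.06, -0.66 and -0.91 to -1.70, -2.27 and -1.96 (-1.10 ± 0.24, 2.14-fold, adjusted p = 0.0493 in limma). HumanlincRNA1287-_P1 went from -1.90, -1.46 and -1.01 to -2.47, -2.52 and -2.59 (-1.07 ± 0.19, 2.09-fold, adjusted p = 0.0290 in limma). MM9LINCRNAEXON11660+_P1 went from -1.45, -1.66 and -1.6 to -2.57, -2.83 and -2.50 (-1.07 ± 0.19, adjusted p = 0.0307 in limma), and was -0.47 and no longer past the limits with slide as a block. Likewise mouselincRNA1538+_P1 (-0.65 ± 0.10, adjusted p = 0.0245 in limma) was -0.37 with slide as a block. MouselincRNA0561+_P1 was past the limits through 1 array, with -2.10, -2.18 and -0.19 in sham miR-150 cKO and -2.28, -2.71 and -2.48 in MI miR-150 cKO. Its difference of -1.0 ± 0.43 (adjusted p = 0.223 in limma) was -0.35 without sham miR-150 cKO replicate 3.

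The 2 probes that were higher after adjustment were MM9LINCRNAEXON10627+_P1 and humanlincRNA1922+_P1. The first was detected on 5 arrays and met the background requirement only with its MI miR-150 cKO arrays. Its rise is therefore not separate from that requirement. MM9LINCRNAEXON10627+_P1 gave -4.90, -6.02 and -6.05 in sham miR-150 cKO, where replicate 1 alone was above background, and -3.01, -4.15 and -3.58 in MI miR-150 cKO, where all 3 were. The difference was 2.08 ± 0.43 (4.21-fold, adjusted p = 0.0404 in limma), and it was 1.74 with slide as a block and 0.34 after normexp background correction, past the limits in neither. In MI miR-150 fl/fl none of the 3 arrays was above background, at -5.49, -6.40 and -5.61. HumanlincRNA1922+_P1, detected on all 12 arrays, rose from -1.25, -1.40 and -1.33 to -0.65, -0.80 and -0.98, a difference of 0.52 ± 0.11 (1.43-fold, adjusted p = 0.0496 in limma). Its minus partner stayed between -1.63 and -1.09 on all 12 arrays.

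Dim probes gave wide differences that did not pass adjustment. MouselincRNA0100-_P1 gave -4.14, -5.73 and -5.61 in sham miR-150 cKO and -2.57, -2.82 and -4.45 in MI miR-150 cKO, so the groups overlapped (1.89 ± 0.60, adjusted p = 0.118 in limma). HumanlincRNA0622+_P1 went from -4.0, -6.0 and -4.85 to -3.50, -3.42 and -3.60, a difference of 1.44 ± 0.41 (adjusted p = 0.0907 in limma). For mouselincRNA1606+_P1, humanlincRNA1542+_P1 and humanlincRNA0246+_P1 the differences of 1.73 ± 0.76, 1.19 ± 0.45 and 1.17 ± 0.41 had limma adjusted p-values of 0.230, 0.173 and 0.152. After normexp background correction none of these 5 probes passed the limits: humanlincRNA1542+_P1 turned to -0.06, and mouselincRNA0100-_P1, humanlincRNA0622+_P1, mouselincRNA1606+_P1 and humanlincRNA0246+_P1 were 0.32, 0.09, 0.21 and 0.12. In each of the 5 a single sham miR-150 cKO array was above background.

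The 36 adjusted calls depended on single arrays and on slide, as did the 1139 over all tested probes. There were 0 lincRNA calls without sham miR-150 cKO replicate 2, without replicate 3, or without MI miR-150 cKO replicate 2 or 3. There were 153 without sham miR-150 cKO replicate 1. Over all tested probes the same fits gave 0 in the first cases and 4037 in the last. Leaving out MI miR-150 cKO replicate 1, sham miR-150 fl/fl replicate 3 or MI miR-150 fl/fl replicate 1 gave 12, 11 and 19 lincRNA calls. Over all tested probes these fits gave 460, 299 and 434. With slide as a block 1 lincRNA probe was called, which was not among the 36, and 22 of all tested probes were called.

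After infarction, miR-150 cKO hearts were set against miR-150 fl/fl hearts to ask what deletion of miR-150 does in the infarcted heart. Past the limits were 30 higher lincRNA probes (2.05%, against 3.45% of all tested probes) and 21 lower (1.44%, against 1.31%). No adjusted p in limma was under 0.05, compared with 0.00184% of all tested probes, and the lowest was 0.0730. An unadjusted p under 0.05 was found for 197 (13.5%, against 16.8% of all tested probes). The groups did not overlap for 25 of the higher and 19 of the lower probes (1.71% and 1.3%, against 3.13% and 1.19% of all tested probes). Of the 30 higher probes, 13 lay in the brightest quartile of the array, as did 1082 of 1843 higher remaining probes, and 8.02% of lincRNA and 8.08% of remaining probes of that quartile were higher. With slide as a block, which sets MI miR-150 fl/fl replicate 3 against the MI miR-150 cKO arrays on the same slide, the counts were 12 higher and 32 lower. Without MI miR-150 fl/fl replicate 2 there were 17 higher, and without replicate 1 there were 33 lower.

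The brightest of the higher probes named by the rule were mouselincRNA0706+_P1 and humanlincRNA0997+_P1. MouselincRNA0706+_P1 gave 2.32, 1.05 and 2.96 in MI miR-150 fl/fl and 3.04, 3.25 and 3.55 in MI miR-150 cKO (1.17 ± 0.42, 2.25-fold, adjusted p = 0.201 in limma). The groups did not overlap, but MI miR-150 fl/fl replicate 3 came close to the MI miR-150 cKO arrays, and with slide as a block the difference was 0.32, and leaving out replicate 2 of MI miR-150 fl/fl gave 0.64. HumanlincRNA0997+_P1 gave 1.84, 1.26 and 2.37 against 2.73, 3.08 and 2.65 (1.0 ± 0.29, adjusted p = 0.132 in limma), and 0.45 with slide as a block. HumanlincRNA2294+_P1 followed with -1.78, -2.61 and -1.39 against -1.25, -0.85 and -0.79 (0.96 ± 0.28, adjusted p = 0.135 in limma), and 0.43 with slide as a block.

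HumanlincRNA0324+_P1 passed the limits together with its partner. The plus probe gave -3.44, -4.23 and -3.51 in MI miR-150 fl/fl and -2.60, -2.73 and -2.75 in MI miR-150 cKO (1.03 ± 0.25, adjusted p = 0.103 in limma), and was 0.26 after normexp background correction and 0.81 with slide as a block, past the limits in neither. The minus probe gave 0.78, 0.06 and 1.16 against 1.30, 1.24 and 1.5 (0.68 ± 0.23, adjusted p = 0.187 in limma). In the minus probe, MI miR-150 fl/fl replicate 3, on the slide of the MI miR-150 cKO arrays, lay closest to them at 1.16. Values of the minus probe with slide as a block and after normexp background correction are not given here. HumanlincRNA0324 was the only number whose plus and minus probes were both past the limits in the same direction, counting all 4 comparisons. Both probes were read on the same arrays. MM9LINCRNAEXON10627+_P1 had the widest positive difference, at -3.01, -4.15 and -3.58, and was at least 1.72-fold higher than in MI miR-150 fl/fl, where it was not above background (2.25 ± 0.43 as measured, adjusted p = 0.0758 in limma). The probe met the background requirement only with its MI miR-150 cKO arrays, so this bound is not separate from that requirement. After normexp background correction its difference was 0.31 and not past the limits.

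Of the lower probes, humanlincRNA1857-_P1 passed the limits under all 21 alternatives tried. It gave -2.97, -1.94 and -3.03 in MI miR-150 fl/fl and -3.79, -3.85 and -3.94 in MI miR-150 cKO, with a difference of -1.22 ± 0.27 (2.32-fold, adjusted p = 0.0899 in limma) and -0.83 with slide as a block. Its 3 sham miR-150 cKO arrays, at -2.96, -3.56 and -3.47, and 3 sham miR-150 fl/fl arrays, at -3.01, -2.99 and -2.66, also lay above. HumanlincRNA0755-_P1 gave -3.28, -2.02 and -3.11 against -4.07, -4.01 and -3.97 (-1.22 ± 0.30, adjusted p = 0.103 in limma), and was -0.91 and not past the limits with slide as a block, and -0.60 after normexp background correction. MouselincRNA1224-_P1 was above background on all 3 MI miR-150 fl/fl arrays, at -3.91, -2.98 and -4.01, and on no MI miR-150 cKO array, and was at least 2.26-fold lower (adjusted p = 0.174 in limma), but did not pass the limits with slide as a block or when replicate 2 of MI miR-150 fl/fl was left out. This probe met the background requirement only with its MI miR-150 fl/fl arrays, so its bound is not separate from that requirement.

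The remaining named lower probes rested on 1 or 2 infarcted fl/fl hearts. The high values of humanlincRNA1362+_P1 and mouselincRNA0492-_P1 on MI miR-150 fl/fl replicates 1 and 2, described above, gave differences here of -3.06 ± 1.01 and -1.83 ± 0.69, since the comparisons share those arrays. Within slide 1 the 2 differences were 0.03 and -0.04. MouselincRNA0309+_P1 stood at 0.59 on MI miR-150 fl/fl replicate 1 and between -2.15 and -1.42 on the other 11 arrays. Its difference of -1.10 ± 0.48 was -0.36 without that array, and its call was lost under 16 of 21 alternatives.

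**Figure D5:**
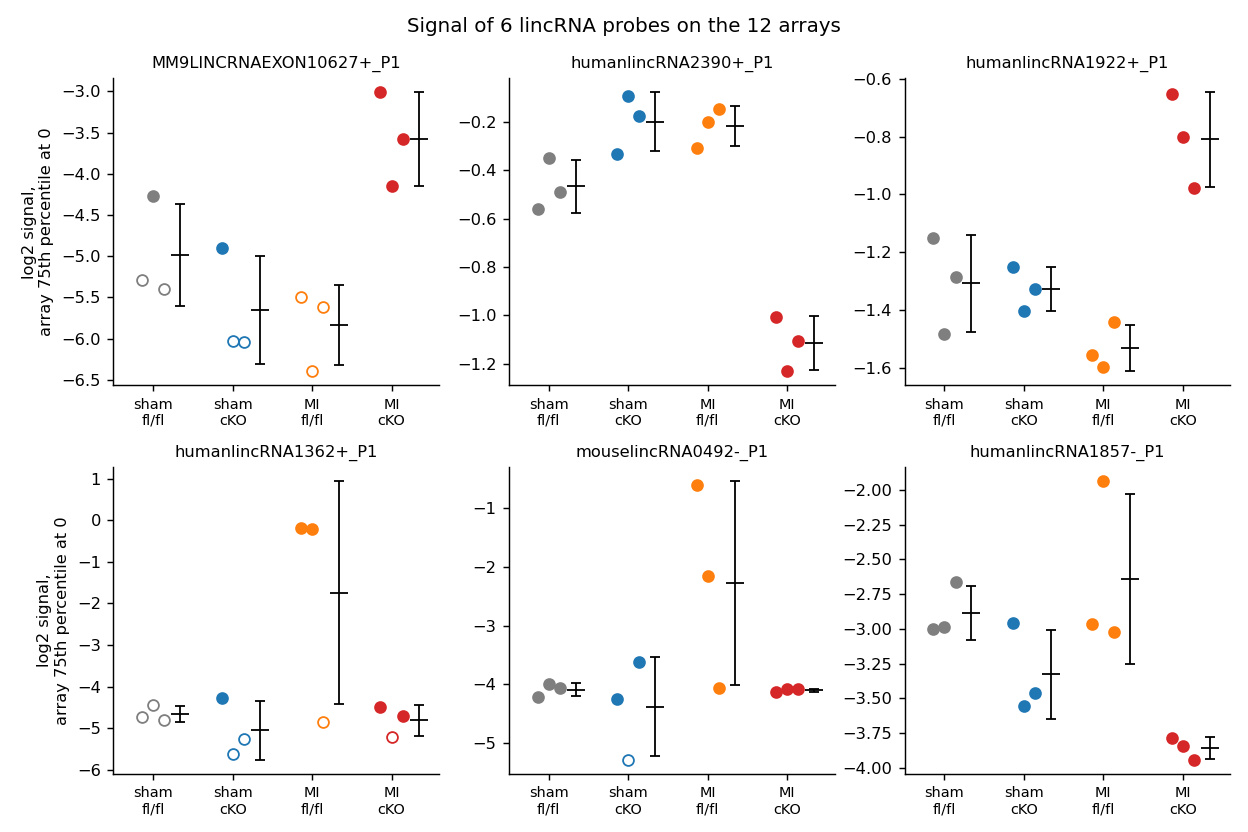
Log2 signal (array 75th percentile at 0) of 6 lincRNA probes on the 12 arrays, with filled circles for arrays where the probe was well above background, open circles where it was not, and black bars for mean ± SD (n = 3). The upper row shows MM9LINCRNAEXON10627+_P1, humanlincRNA2390+_P1 and humanlincRNA1922+_P1, whose MI miR-150 cKO arrays lie all above or all below the other 9. For MM9LINCRNAEXON10627+_P1 the margin is narrow, with -4.15 on MI miR-150 cKO replicate 2 and -4.27 on sham miR-150 fl/fl replicate 2. The lower row shows humanlincRNA1362+_P1 and mouselincRNA0492-_P1, high on MI miR-150 fl/fl replicates 1 and 2, and humanlincRNA1857-_P1, lowest in MI miR-150 cKO.

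The interaction of genotype and surgery asked whether MI changed a probe differently in miR-150 cKO and miR-150 fl/fl hearts. In limma no lincRNA probe reached an adjusted p under 0.05, the lowest being 0.189. Past the limits 36 were positive (2.46%, against 4.4% of all tested probes) and 26 negative (1.78%, against 2.46%). An unadjusted limma p under 0.05 was found for 163 (11.1%, against 13.4% of all tested probes). The lowest unadjusted values among negative interactions belonged to humanlincRNA2390+_P1 (-1.16 ± 0.15), humanlincRNA1443+_P1 (-1.01 ± 0.13) and humanlincRNA1030+_P1 (-0.96 ± 0.18), all with adjusted p = 0.189 in limma. HumanlincRNA1030+_P1 gave 1.08, 1.47 and 1.26 in sham miR-150 fl/fl, 1.44, 1.42 and 1.63 in MI miR-150 fl/fl, 1.34, 1.66 and 1.6 in sham miR-150 cKO and 0.78, 0.71 and 0.90 in MI miR-150 cKO. The MI miR-150 cKO arrays were below all 9 others. The split of 36 and 26 turned over with quantile normalization (31 and 37), normexp (6 and 13), the values deposited by the authors (30 and 36), no filter (46 and 62), detection on all 12 arrays (13 and 25), slide as a block (21 and 40) and slide and row as a block (9 and 60). It was 141 and 34 without sham miR-150 cKO replicate 1, and leaving out replicate 3 of MI miR-150 fl/fl gave 80 and 32. Among positive interactions were MM9LINCRNAEXON10627+_P1 (2.92 ± 0.60, adjusted p = 0.189), for which no MI miR-150 fl/fl array was above background, humanlincRNA1922+_P1 (0.74 ± 0.16, adjusted p = 0.194) and humanlincRNA0065-_P1 (0.51 ± 0.12, adjusted p = 0.203). In humanlincRNA0065-_P1 it was MI miR-150 fl/fl that stood apart, at 0.60, 0.50 and 0.58, with the other 9 arrays between 0.82 and 1.05.

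In all, 131 of the 1462 lincRNA probes passed the limits in at least 1 comparison and 39 in 2 or more. The matching shares of all tested probes were not counted. In either direction, 2.05%, 0.821%, 5.34% and 3.49% of lincRNA probes passed in the 4 comparisons. Among remaining probes these shares were higher, at 2.77%, 1.26%, 6.38% and 4.8%. Most of the 39 joined comparisons with a shared group, 16 of them MI miR-150 cKO against each of its controls and 14 sham miR-150 cKO against each of its counterparts, so these calls are not separate results. Across the 564 pairs the log2 differences of plus and minus partners had a Pearson r of 0.05, -0.00 and -0.01 in the first 3 comparisons and 0.02 in the last, again as a description over probes. The partners had the same sign in 52.0%, 50.4%, 53.5% and 48.0% of pairs. With 3 mice against 3, an exact permutation test for 1 probe cannot go below p = 0.10. The 36 adjusted calls became 0 with the unpaired 2-tailed test, which shares no variance across probes. Past the limits, that test gave 2, 6, 49 and 29 lincRNA probes in the 4 comparisons, where limma gave 30, 12, 78 and 51. Of these lincRNA probes, 2, 4, 42 and 26 were called by both. Over all tested probes the counts also fell. The unpaired test gave 104, 198, 1476 and 1218 higher, where limma gave 345, 478, 2495 and 1873. For lower probes it gave 308, 87, 793 and 502, where limma gave 1148, 198, 951 and 712.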

How the data were processed

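Total RNA was extracted from the LVs with a column kit, ribosomal RNA was removed and random-primed Cy3 cRNA was hybridised. The deposited scanner files held probe intensity as processed by the authors with Agilent Feature Extraction 11.0.1.1, and the authors' table of normalized log2 values was used as an alternative. Here the log2 of the processed signal minus the 75th percentile of each array was fitted with limma 3.58.1 in R 4.3.3 as 4 group means. Duplicate spots were averaged, 435 flagged spots were left out, and 15 negative probes and 96 probes not in the authors' table were removed. Probes well above background on at least 3 arrays were tested (54232 of 60819), and the code was tested on simulated data. Probes named were, per comparison and direction, the 5 widest differences past the limits without overlap and with all 3 arrays of the brighter group above background; the 5 lowest adjusted p-values under 0.05; the 3 lowest interaction p-values in each direction; up to 5 probes past the limits in 2 or more comparisons; the 5 brightest and the dimmest probe; and their partners. A bound ("at least") compares the brighter group's mean with the dim group's mean of, per array, the higher of the lowest signal well above background and the probe's own. The probes and lists were chosen with earlier results of these data known. Marker and gene lists could not be used, and the tissue label could not be checked, because probes carry no gene names. The number of arrays limits precision. The 3 mice per group were separate animals. Alternatives were quantile normalization, normexp with offset 50, the authors' values, other filters, an unpaired test, blocks for replicate number, slide, and slide with row (slide with row chosen after seeing the data), and leaving out each array. Same-numbered arrays of different groups had correlations of deviations from -0.27 to 0.27 (n = 18 pairs). Differently numbered arrays had correlations from -0.41 to 0.34 (n = 36 pairs). With 3 arrays per group this check cannot decide whether the numbers paired samples, and the samples were fitted as unpaired.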

Additional observations from a re-analysis of the deposited data

Results flagged for a closer look

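The 43 named lincRNA probes were chosen partly by lack of overlap or a low interaction p in these same data. Counts of overlap among them are therefore not separate results. Among these 43, 10 had groups without overlap in 2 counterpart comparisons, in opposite directions, across either surgery or genotype. Unnamed probes such as humanlincRNA0011+_P1 had this pattern too, and its share of all tested probes was not counted. For none did the interaction of genotype and surgery reach an adjusted p under 0.05 in limma. The interaction was 2.92 for MM9LINCRNAEXON10627+_P1 (adjusted p = 0.189), but this probe was above background on 1 sham and on no MI array of miR-150 fl/fl mice, so that its direction after MI in those mice is not established and only the difference of 2.08 in miR-150 cKO is given. It was -1.16 for humanlincRNA2390+_P1 (MI effect 0.25 and -0.91, genotype effect 0.27 in sham and -0.90 after MI) and -1.01 for humanlincRNA1443+_P1 (MI effect 0.14 and -0.87, genotype effect 0.31 and -0.70), both with adjusted p = 0.189 in limma. By genotype effect, in sham and after MI, MM9LINCRNAEXON11660+_P1 had 0.31 and -0.84 (interaction -1.15, adjusted p = 0.203), humanlincRNA1287-_P1 had 0.54 and -0.44 (-0.98, adjusted p = 0.223) and humanlincRNA0115+_P1 had 0.29 and -0.49 (-0.78, adjusted p = 0.208), all in limma. MouselincRNA1538+_P1 had 0.26 and -0.36 (-0.63, adjusted p = 0.194) and mouselincRNA1103-_P1 had 0.13 and -0.32 (-0.44, adjusted p = 0.204). The opposite order was measured, with signal partly below background, in humanlincRNA0622+_P1, with -1.06 and 0.77 (1.83, adjusted p = 0.265), and humanlincRNA0171+_P1, with -0.83 and 0.49 (1.32, adjusted p = 0.234). MI miR-150 cKO lay on 1 slide and sham on the other, and the part of slide in these values was not tested beyond the blocked fits.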

How the results depend on the processing

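Of 48 results for named lincRNA probes, 11 kept their direction and their side of the limits (for interactions, of an unadjusted p of 0.05) under every alternative tried, and 3 values changed sign. MouselincRNA1103-_P1, called by its adjusted p alone, lost that call with the unpaired test, the replicate block, both slide blocks, and without sham miR-150 cKO replicate 2 or 3 or MI miR-150 cKO replicate 2 or 3. HumanlincRNA1362+_P1 in MI miR-150 cKO against MI miR-150 fl/fl was 0.0325 in both fits with a slide block (slide alone, slide plus row), and humanlincRNA1542+_P1 in MI miR-150 cKO against sham miR-150 cKO was -0.0618 with normexp. The causes of changes were not tested.

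In sham miR-150 cKO against sham miR-150 fl/fl, the 4 higher probes became 0 with normexp, 32 without a filter, 2 with detection on all 12 arrays, 1 with the unpaired test, 2 with the replicate block and 18 with slide and row. The 26 lower became 1, 4, 1 and 0 with normexp, all 12 arrays, the unpaired test and slide and row, which also gave 1 adjusted call and turned the gap of medians from -0.0321 to 0.0203. In MI against sham in miR-150 fl/fl, the 8 higher became 3 with normexp, 15 without a filter, 2 with all 12 arrays, 3 with the unpaired test and 119 with slide and row, and the 4 lower became 0, 13 and 1 with the first 3 of these, 10 with slide and 37 with slide and row. Quantile normalization gave 6 higher and 5 lower. Slide, and slide and row, each gave 1 adjusted call, and the gap moved from -0.0171 to 0.0489 with slide and row.

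In MI against sham in miR-150 cKO, the 41 higher became 22 with quantile, 4 with normexp, 21 with the authors' values, 6 with all 12 arrays, 17 with the unpaired test, 12 with slide and 64 with slide and row. The 37 lower became 14 with normexp, 141 without a filter and 69 with slide and row. The 36 adjusted calls became 111 with normexp (35 shared), 56 with all 12 arrays (34 shared), 0 with the unpaired test, and 1 with slide and with slide and row. Over all tested probes the 1139 adjusted calls became 3343, 2005, 0, 22 and 5 in the same order. The gap moved from 0.00729 to -0.0268 with normexp. In MI miR-150 cKO against MI miR-150 fl/fl, the 30 higher became 17 with normexp, 19 with the unpaired test, 12 with slide and 15 with slide and row. The 21 lower became 11 with normexp, 12 with all 12 arrays, 10 with the unpaired test, 32 with slide and 35 with slide and row. Adjusted calls rose from 0 to 57 with normexp, 7 with all 12 arrays and 4 with slide and with slide and row. The brightness gap of -0.839 was -0.534 with normexp and -1.12 without a filter.

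The 36 positive interactions became 6 with normexp, 13 with all 12 arrays, 21 with slide and 9 with slide and row, and the 26 negative became 13 with normexp, 62 without a filter, 40 with slide and 60 with slide and row.

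With the replicate number as a block, which was not shown to pair these arrays, the 36 adjusted calls became 0. Higher and lower counts in that fit were 2 and 28, 7 and 3, 40 and 37, and 29 and 21 in the 4 comparisons.

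Leaving out 1 array gave 2 to 11 higher, 5 to 99 lower and 0 to 12 adjusted in the first comparison, with a gap of -0.0574 to -0.00385. It gave 3 to 34, 3 to 10 and 0 to 1 in the second, with a gap of -0.0409 to 0.00887, 22 to 132, 33 to 53 and 0 to 153 in the third, with a gap of -0.0138 to 0.0204, and 17 to 45, 15 to 33 and 0 to 4 in the fourth, with a gap of -0.0289 to 0.000777. Over all tested probes the adjusted calls in the third comparison ran from 0 to 4037. The interaction gave 26 to 141 positive, 20 to 34 negative and 0 to 6 adjusted calls, 6 of them without sham miR-150 cKO replicate 1. The 12 adjusted calls in the first comparison also came without sham miR-150 cKO replicate 1, the 1 in the second without MI miR-150 fl/fl replicate 3, and the 4 in the fourth without sham miR-150 fl/fl replicate 1. Probes near background limit every count of dim lincRNA probes.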
